A study of Mus musculus with 38 samples.

Results

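The Hox genes of mouse tail skin were followed across 38 bulk RNA-seq libraries. Every gene whose symbol is Hoxa, Hoxb, Hoxc or Hoxd followed by a paralogue number was taken, which gave 38 of 19218 genes in the table, with 11 in cluster A, 10 in B, 9 in C and 8 in D. Hoxd4 was not analysed here. The series asked what becomes of tail skin when vitiligo, a loss of pigment cells, is induced in mice, when gut microbes are depleted with ABX, and when hippuric acid is given. The 6 groups were vitiligo induction with ABX (vitiligo_ABX, n = 6), vitiligo induction alone (vitiligo, n = 9), wild type with ABX (no_induction_ABX, n = 6), wild type with hippuric acid injected into the peritoneum (hippuric_acid, n = 5), wild type with its vehicle by the same route (vehicle, n = 3) and wild type left uninduced (no_induction, n = 9). Strain, age, sex, the inducing agent, the makeup and dose of ABX, and the stretch of tail that was taken are not given in the labels. A difference in sampling position or in cohort therefore cannot be told apart from a difference between groups.

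Hox genes encode homeodomain transcription factors that tell cells where along the body axis they lie. Within a cluster, low paralogue numbers are used toward the head and high numbers toward the tail, and high numbers are switched on later in the embryo. Adult skin cells keep part of this code: human fibroblasts carry Hox profiles that differ with the site of the skin. Hoxb13, expressed in the tail bud, hindgut and prostate, limits tail length in mice, and Hoxc13 is needed for hair shafts and regulates hair keratin genes. Hoxa13 and Hoxd13 pattern the ends of limbs and the genital tubercle.

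Promoter windows are shown for 4 members whose levels are followed below, to set a posterior gene of cluster A, a middle gene of cluster B, and a middle and a posterior gene of cluster D side by side. They are the 250 bases before the RefSeq start, from 21 members (23 windows) with an entry in the RefSeq table of build GRCm38.p6. Hoxb13 and Hoxc13 have no entry there. Capitals mark the matches, on either strand, of 4 motifs: CAATAAA, a site of posterior Hox proteins, TGATTNAT, a composite site of Hox and Pbx proteins, TATAAA and CCAAT. Where 2 matches overlap, the capitals run through both.
Hoxa13 (chr6:52260881-52261130, minus strand): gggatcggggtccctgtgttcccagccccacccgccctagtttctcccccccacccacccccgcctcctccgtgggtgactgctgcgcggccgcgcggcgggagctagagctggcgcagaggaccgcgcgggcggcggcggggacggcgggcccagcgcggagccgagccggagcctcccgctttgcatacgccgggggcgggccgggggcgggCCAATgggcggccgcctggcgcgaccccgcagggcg
Hoxb8 (chr11:96281655-96281904, plus strand): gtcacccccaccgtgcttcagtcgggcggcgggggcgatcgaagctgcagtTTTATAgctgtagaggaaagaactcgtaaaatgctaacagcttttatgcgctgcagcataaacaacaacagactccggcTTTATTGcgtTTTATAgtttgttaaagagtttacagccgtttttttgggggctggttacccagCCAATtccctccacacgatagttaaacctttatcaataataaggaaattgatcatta
Hoxd8 (chr2:74704365-74704614, plus strand): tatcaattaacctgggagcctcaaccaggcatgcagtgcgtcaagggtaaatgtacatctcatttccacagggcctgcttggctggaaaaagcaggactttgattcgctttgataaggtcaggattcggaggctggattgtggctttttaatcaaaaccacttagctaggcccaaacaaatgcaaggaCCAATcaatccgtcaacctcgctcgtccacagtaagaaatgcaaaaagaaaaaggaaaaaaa
Hoxd13 (chr2:74667975-74668224, plus strand): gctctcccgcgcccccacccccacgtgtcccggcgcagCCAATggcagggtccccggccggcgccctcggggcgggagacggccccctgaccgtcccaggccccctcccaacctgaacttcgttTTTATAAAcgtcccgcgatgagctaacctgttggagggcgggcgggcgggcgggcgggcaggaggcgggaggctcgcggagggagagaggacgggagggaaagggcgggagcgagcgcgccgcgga
The Hoxa13 window has 80.0% G and C and the Hoxd13 window 74.4%, against 44.4% in each of Hoxb8 and Hoxd8. CCAAT stood in all 4, and in 13 of the 23 Hox windows (56.5%), against 33.8% of the 32851 windows of the table. CAATAAA stood in 1 of the 23, that of Hoxb8, 120 to 114 bases before the start on the opposite strand, against 4.20% of all windows. TGATTNAT was found in the windows of Hoxa2 and Hoxd11 (8.70% of Hox windows, 2.82% of all), and TATAAA in 3 Hox windows (13%, against 12.4% of all). These are matches of letters in short windows and nothing more.

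Libraries held 15341831 to 27920844 counts. Levels are CPM, counts scaled to a common library total with TMM factors. Skin markers were present in every library: the 7 basal keratinocyte markers summed to 4872 to 11825 CPM and the 8 fibroblast markers to 4078 to 21116 CPM. Y-linked transcripts reached 10 CPM or more in no_induction 011 and 012 and vehicle 001, and gastrointestinal transcripts stood out in these 3 and in vitiligo 000 and 260. Vitiligo 001 had the lowest fibroblast sum, 4078 CPM against 9924 to 13782 CPM in the other vitiligo libraries. In whole skin, fewer cells of a type and less RNA per cell cannot be told apart. Differences were tested with edgeR's quasi-likelihood test, adjusted over all genes tested (Benjamini-Hochberg), and a gene is called, and said to rise or fall, at an adjusted p under 0.05. Log2 fold changes are given ± SE and levels as mean ± SD.

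The Hox transcripts of tail skin came mostly from the posterior ends of the clusters. To compare genes, CPM were divided by annotated exon length (CPM per kb). Paralogue groups 9 to 13 made up 72.2% ± 1.41 of the summed Hox CPM per kb over the 38 libraries, with a range of 69.3% to 75.8%. Groups 5 to 8 made up 23.3% and groups 1 to 4 made up 4.54%. Hoxc13 was the highest, at a mean of 39 CPM per kb, followed by Hoxd9 at 22.5, Hoxd8 at 20.5, Hoxd10 at 15.7, Hoxa9 at 10.6 and Hoxb13 at 7.04 CPM per kb. The clusters differed in where they peaked: cluster C at paralogue 13, cluster D at 8 to 10, cluster A at 9, and cluster B at 13 and 7. Hoxb13 stood above Hoxb7 in vitiligo_ABX (10.5 and 7.91 CPM per kb), no_induction_ABX (12.4 and 6.52) and hippuric_acid (14.2 and 6.68), and below it in vitiligo (1.83 and 5.37), vehicle (2.89 and 5.51) and no_induction (3.75 and 6.51), so its place in the order rests on the ABX and hippuric acid groups. Cluster D held 35.5% of the Hox signal, C 30.6%, A 18.1% and B 15.9%.

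**Figure D1:**
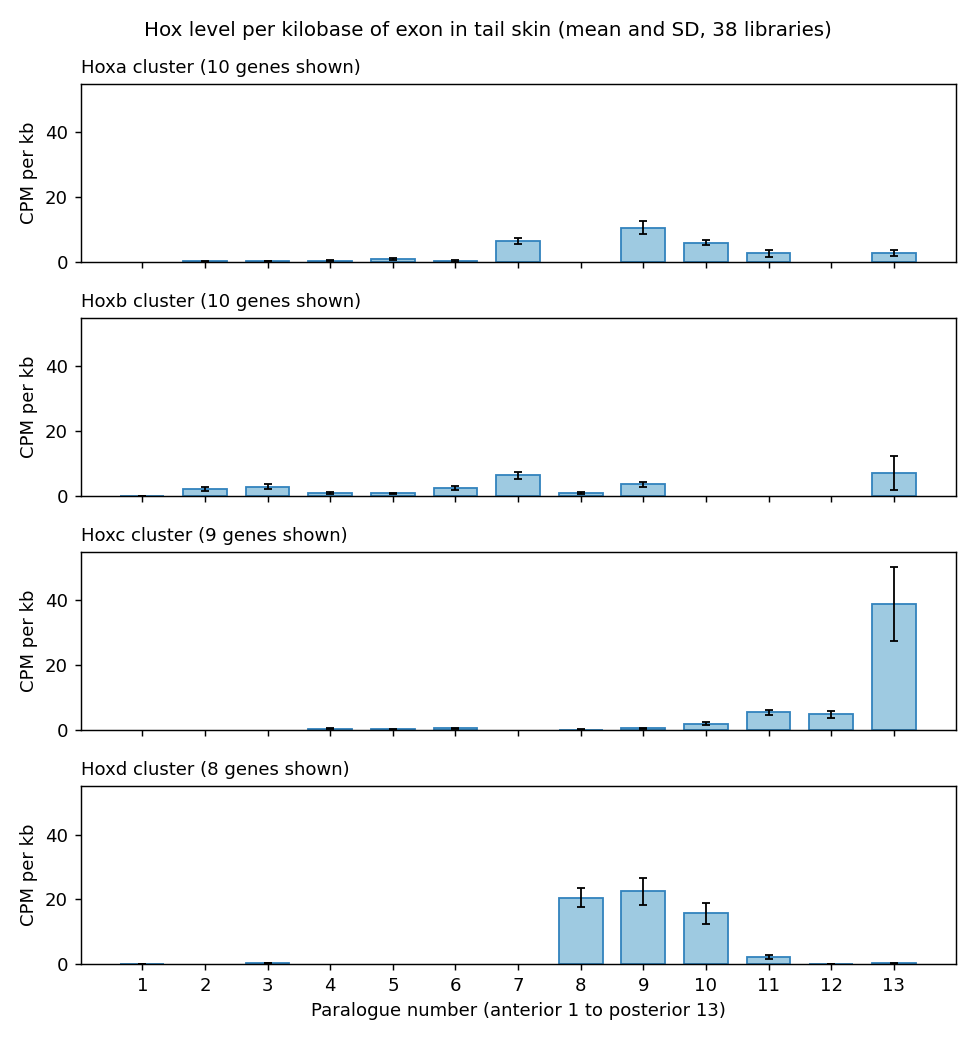
Level of 37 Hox genes in CPM per kb of exon (vertical axis) by paralogue number (horizontal axis), one panel per cluster; bars are means and error bars SD over 38 libraries. Hoxc13 stands at 39 CPM per kb and Hoxd8 to Hoxd10 at 15.7 to 22.5, while paralogues 1 to 4 are at 2.94 or less in every cluster.

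Posterior genes were not all high. Hoxd13 had 0.253 CPM per kb and Hoxd10 of the same cluster had 15.7, and Hoxd12 had 13 counts in all 38 libraries together. Hoxb1 had 31 counts and Hoxd1 had 26 over the same libraries, and these 3 genes passed the count filter in no test. Hoxa6 passed it in none of the 6 comparisons between pairs of groups. The summed Hox level was 185 ± 11.4 CPM per kb in vitiligo_ABX, 162 ± 21.7 in vitiligo, 156 ± 16.1 in no_induction_ABX, 176 ± 8.45 in hippuric_acid, 170 ± 5.07 in vehicle and 187 ± 11 in no_induction. The ranges of the 6 groups all overlapped.

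Hoxb13 separated the libraries given ABX or hippuric acid from all others. It had 13.8 to 34.0 CPM (median 23.3) in vitiligo_ABX, 0.323 to 9.62 (median 3.72) in vitiligo, 24.8 to 30.3 (median 27.3) in no_induction_ABX and 2.06 to 12.3 (median 9.26) in no_induction. The 5 hippuric_acid libraries had 33.0, 32.4, 37.7, 26.3 and 27.8 CPM, and the 3 vehicle libraries had 9.31, 5.54 and 4.29 CPM. All 17 libraries given ABX or hippuric acid, at 13.8 CPM or more, lay above all 21 others, at 12.3 CPM or less. Of the 35 Hox genes tested over the 6 groups it was the 1 with no overlap between these sets, as were 7 of all 14720 genes tested there (0.0476%), 4 of them higher with ABX or hippuric acid (0.0272%). By mean the order was hippuric_acid (31.4), no_induction_ABX (27.4), vitiligo_ABX (23.1), no_induction (8.28), vehicle (6.38) and vitiligo (4.03). Neighbours in that order overlapped except vitiligo_ABX and no_induction. Within vitiligo_ABX, libraries 001 to 003 had 13.8 to 19.2 CPM and libraries 004 to 006 had 27.4 to 34.0 CPM, and Hoxa13 split the same libraries at 4.16 to 4.26 against 6.70 to 8.41 CPM. What sets these libraries apart is not labelled. The TMM factors also split the 17 libraries given ABX or hippuric acid (lowest 1.014) from the 21 others (highest 1.007). Their part in the Hoxb13 difference was not tested.

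**Figure D2:**
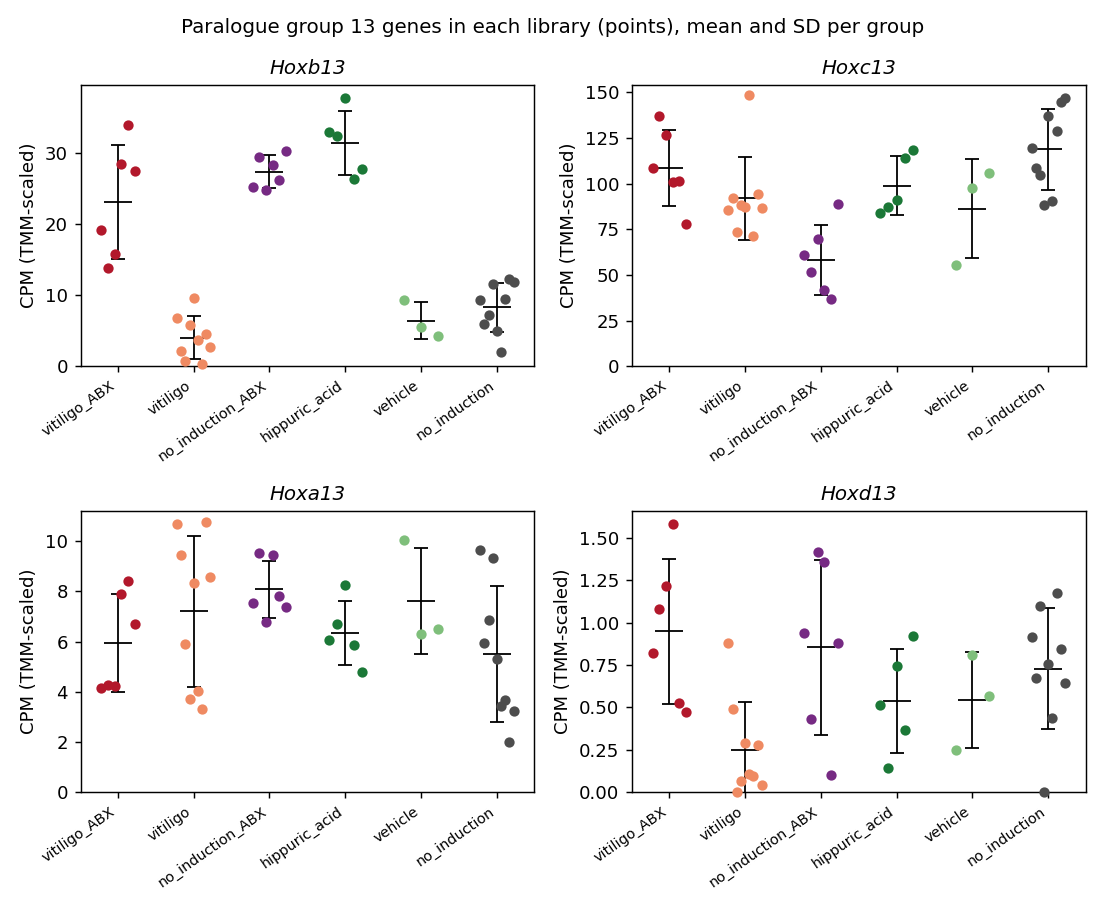
CPM (vertical axis) of Hoxb13, Hoxc13, Hoxa13 and Hoxd13 in each library (points) of the 6 groups (horizontal axis), with mean and SD. Hoxb13 is at 13.8 CPM or more in every library given ABX or hippuric acid and at 12.3 CPM or less in every other library, while the other paralogues overlap between groups.

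Unlike Hoxb13, the other paralogues of group 13 overlapped between the libraries given ABX or hippuric acid and the rest. Hoxa13 ranged from 4.16 to 9.55 CPM in the 17 libraries given ABX or hippuric acid and from 2.0 to 10.8 CPM in the other 21. Hoxd13 had at most 1.58 CPM in any library and had 0 counts in vitiligo 047 and no_induction 005, where 0 allows up to 3 counts. Hoxc13 had 36.6 to 137 CPM in the first set and 55.4 to 148 CPM in the other.

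Cluster B took a larger share of the Hox signal in libraries given ABX or hippuric acid. Its share of summed Hox CPM per kb was 18.8% ± 2.68 in vitiligo_ABX against 11.2% ± 0.734 in vitiligo, 21.4% ± 1.62 in no_induction_ABX against 12.9% ± 1.10 in no_induction, and 21.6% ± 1.09 in hippuric_acid against 12.1% ± 1.3 in vehicle. The 17 libraries spanned 15.6% to 23.1% and the other 21 spanned 10.3% to 14.7%, without overlap. With Hoxb13 taken out of both sums the ranges were 12.5% to 16.4% and 9.0% to 12.2%, so the separation did not rest on Hoxb13 alone, although the gap became narrow. Shares sum to 100%, so a higher share of cluster B can also come with lower levels of other clusters. The comparisons show this for no_induction_ABX against no_induction. There the 8 tested Hoxb genes other than Hoxb13 had a median log2 fold change of 0.02, with 1 called higher and 1 lower.

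**Figure D3:**
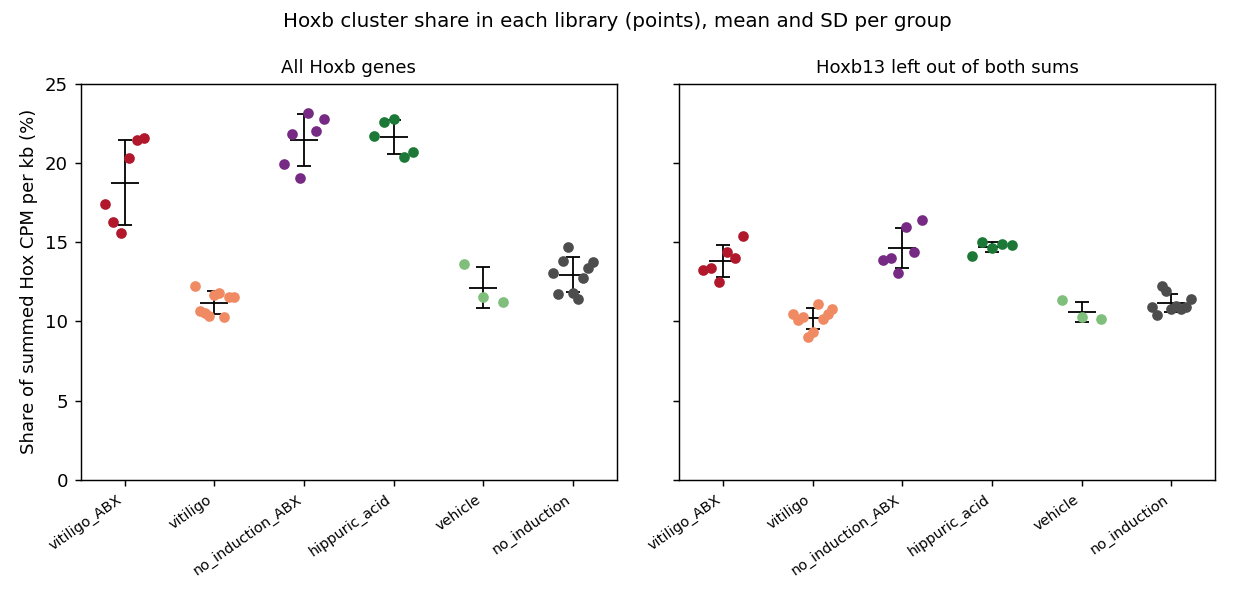
Share of the Hoxb genes in the summed Hox CPM per kb (vertical axis, percent) in each library (points) with mean and SD by group, for all Hoxb genes (left) and without Hoxb13 (right). Libraries given ABX or hippuric acid span 15.6% to 23.1% and the others 10.3% to 14.7% on the left.

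Between vitiligo_ABX and vitiligo, 6 of 32 tested Hox genes rose and 0 fell, 5 of them in cluster B. Of all genes tested 13.1% were called, 5.06% as higher. All 9 tested Hoxb genes had a positive log2 fold change, with a median of 0.56 against 0.02 over all genes. Hoxb13 rose by 2.53 ± 0.46 (adjusted p = 0.00181), with 6 of 6 libraries above every vitiligo library. Hoxb7, a trunk patterning gene, had 11.1 to 13.6 CPM (median 12.2) in vitiligo_ABX and 6.47 to 10.5 (median 8.17) in vitiligo, without overlap, and rose by 0.56 ± 0.12 (adjusted p = 0.00513). Hoxb3, best known in the hindbrain, had 13 to 16.6 CPM in vitiligo_ABX and 7.48 to 16.1 in vitiligo, where 8 of 9 libraries lay at 9.85 or less, and rose by 0.59 ± 0.14 (adjusted p = 0.0102). Hoxb9, which patterns the thorax, averaged 10.8 ± 1.09 CPM in vitiligo_ABX and 7.31 ± 1.49 in vitiligo and rose by 0.57 ± 0.13 (adjusted p = 0.0109).

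The calls of Hoxb6 and Hoxd13 in the same comparison hung on few libraries. Hoxb6 averaged 5.46 ± 0.883 CPM in vitiligo_ABX and 3.39 ± 1.08 in vitiligo (log2 fold change 0.68 ± 0.20, adjusted p = 0.0298), and the call was lost without any 1 of 3 libraries (vitiligo 047, vitiligo_ABX 002 or 004), without the libraries with gastrointestinal transcripts (adjusted p = 0.0813), and without vitiligo_ABX 001 to 003 (adjusted p = 0.164). Hoxd13 had 0.474 to 1.58 CPM in vitiligo_ABX and 0 to 0.881 in vitiligo, with 3 of 6 libraries above every vitiligo library, and rose by 1.98 ± 0.55 (adjusted p = 0.0243). That call was lost without vitiligo_ABX 004 (adjusted p = 0.0723), without the libraries with gastrointestinal transcripts (adjusted p = 0.0733) and without vitiligo_ABX 001 to 003 (adjusted p = 0.102). Hoxc13 (0.25 ± 0.15, adjusted p = 0.285) and Hoxa13 (-0.27 ± 0.28, adjusted p = 0.561) were not called. Without vitiligo 001, which had the highest Hoxb3 of its group, 13 Hox genes were called. The 9 adipocyte markers all fell, to 341 to 1092 CPM in sum in vitiligo_ABX against 2376 to 6701 CPM in vitiligo, and 5 of 6 suprabasal keratinocyte markers fell. Of 7 melanocyte markers 4 rose, with a sum of 151 to 252 CPM in vitiligo_ABX against 50.5 to 146 CPM in vitiligo, and 3 of 9 tested bone, cartilage and tendon markers rose. The part of these markers in the Hoxb differences was not tested.

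With ABX and no induction 2 Hoxb genes rose, and 6 genes of clusters B, C and D fell. In no_induction_ABX against no_induction 8 of 32 Hox genes were called (25%), beside 31.1% of all genes, so as a count the members did not stand out. Hoxb13 rose by 1.74 ± 0.26 (adjusted p = 0.000183), in 6 of 6 libraries above every no_induction library. Hoxb9 had 9.0 to 12.9 CPM in no_induction_ABX and 7.38 to 10.3 in no_induction and rose by 0.35 ± 0.11 (adjusted p = 0.0175). Hoxb3, Hoxb6 and Hoxb7 differed by -0.00, 0.14 and 0.01 on the log2 scale and were not called. Hoxb2, a hindbrain gene, fell and averaged 5.34 ± 1.23 CPM in no_induction_ABX and 7.90 ± 1.37 in no_induction (-0.55 ± 0.15, adjusted p = 0.0118). The exons of Hoxb2 and Hoxb3 overlap those of the antisense gene Hoxb3os over 27.3% and 52.9% of their length in GENCODE M21, and since the use of strand in counting is not given, reads of the partners cannot be told apart.

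The posterior end of cluster C fell in no_induction_ABX. Hoxc13 had 36.6 to 88.8 CPM (median 56.3) in no_induction_ABX and 88.5 to 147 (median 119) in no_induction, and only no_induction_ABX 006 reached the range of no_induction. Its log2 fold change was -1.02 ± 0.18 (adjusted p = 0.000524). Hoxc12, its neighbour and also used in hair follicles, fell by 0.71 ± 0.15 (adjusted p = 0.00232), and Hoxc11 fell by 0.42 ± 0.09 (adjusted p = 0.00295). Hoxc10 differed by -0.30 ± 0.17 and was not called (adjusted p = 0.182). The share of cluster C in the Hox signal was 18.6% to 26.0% in no_induction_ABX against 29.0% to 37.7% in no_induction, without overlap. Hoxd8 and Hoxd9, the most abundant genes of cluster D, averaged 49 ± 5.65 and 44 ± 2.65 CPM in no_induction_ABX against 60.9 ± 4.22 and 54.8 ± 8.09 CPM in no_induction (log2 fold changes -0.30 ± 0.07 and -0.31 ± 0.09, adjusted p = 0.00522 and 0.0162). None of these 8 calls was lost when any 1 of the 15 libraries was left out. All 11 tested markers of the hair shaft and matrix fell as well, to a sum of 720 to 6172 CPM in no_induction_ABX against 3312 to 9961 CPM in no_induction. The library with the lowest hair sum, no_induction_ABX 005, had the lowest Hoxc13, and the highest of each stood in different libraries (003 for hair, 006 for Hoxc13). These extremes alone do not show whether hair markers and Hoxc13 vary together. All 9 adipocyte markers fell too, to a sum of 262 to 579 CPM in no_induction_ABX against 521 to 1718 CPM in no_induction, and 5 of 6 suprabasal keratinocyte markers fell. Of 7 Schwann cell markers 4 rose, with a sum of 819 to 1917 CPM in no_induction_ABX against 595 to 1164 CPM in no_induction. Of 8 fibroblast markers 2 rose and 1 fell, and the same counts held for 8 tested bone, cartilage and tendon markers. The part of these markers in the Hox differences was not tested. Hoxa13 (0.57 ± 0.27, adjusted p = 0.114) and Hoxd13 (0.23 ± 0.47, adjusted p = 0.737) were not called.

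Hippuric acid again went with higher Hoxb genes. In hippuric_acid against vehicle 5 of 31 Hox genes rose and 3 fell (25.8%, against 13.8% of all genes), and all 9 tested Hoxb genes had a positive log2 fold change, with a median of 0.61 against 0.02 over all genes. Hoxb13 rose by 2.28 ± 0.24 (adjusted p = 0.000617). Hoxb3 had 14.3, 14.3, 15.3, 19.7 and 17.0 CPM in hippuric_acid and 8.58, 11.4 and 11.4 CPM in vehicle, with no overlap (0.62 ± 0.16, adjusted p = 0.0283). Hoxb6 had 5.52, 6.66, 6.36, 6.59 and 7.96 CPM in hippuric_acid and 4.17, 4.6 and 4.29 CPM in vehicle (0.61 ± 0.17, adjusted p = 0.0415). Hoxb8, which patterns the trunk, had 3.17, 3.02, 4.19, 4.49 and 3.11 CPM in hippuric_acid and 1.81, 2.57 and 1.20 CPM in vehicle (0.95 ± 0.28, adjusted p = 0.0486). These groups did not overlap in any of the 3 genes. They also did not overlap in Hoxb13, Hoxd8, Hoxd9 and Hoxd11, nor in the uncalled Hoxa5, Hoxc5 and Hoxd3 (adjusted p = 0.277, 0.27 and 0.107). The share of all genes without overlap was not counted. With 5 and 3 libraries, a lack of overlap is therefore not read as a result. Hoxb6 and Hoxb8 were each lost when any 1 of 7 of the 8 libraries was left out. Vehicle 001, with its Y-linked and gastrointestinal transcripts, was among them (adjusted p = 0.0604 for Hoxb6). Both genes were also lost without the count filter and with limma-voom.

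Cluster D moved in opposite directions in hippuric_acid. Hoxd11, which with Hoxa11 shapes the forelimb and kidney, had 10.5, 11, 13.6, 12.1 and 13 CPM in hippuric_acid and 7.20, 5.34 and 7.37 CPM in vehicle, without overlap, and rose by 0.85 ± 0.16 (adjusted p = 0.00789). Hoxd9 averaged 38.3 ± 2.23 CPM in hippuric_acid and 55.7 ± 10.6 in vehicle (-0.54 ± 0.12, adjusted p = 0.0149), and Hoxd8 averaged 49.2 ± 4.05 CPM in hippuric_acid and 63 ± 3.95 in vehicle (-0.36 ± 0.10, adjusted p = 0.0339). Hoxa9, a posterior patterning gene also used by blood progenitors, averaged 46.8 ± 4.85 CPM in hippuric_acid and 66.6 ± 11.8 in vehicle (-0.51 ± 0.13, adjusted p = 0.0267). Hoxb13, Hoxd9 and Hoxd11 were called whichever 1 of the 8 libraries was left out, and the other 5 genes were not. From 3 (without hippuric_acid 3 or 5) to 6 Hox genes were called with 1 library left out. Hoxc13 (0.20 ± 0.20, adjusted p = 0.555), Hoxa13 (-0.27 ± 0.22, adjusted p = 0.443) and Hoxd13 (0.02 ± 0.59, adjusted p = 0.987) were not called. The adipocyte markers summed to 334 to 1099 CPM in hippuric_acid against 1921 to 2434 CPM in vehicle, and the suprabasal markers to 9189 to 11678 CPM in hippuric_acid against 26260 to 38252 CPM in vehicle. Of 7 basal keratinocyte markers 3 fell, and of 7 melanocyte markers 3 rose. Their part in these results was not tested.

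The comparisons of vitiligo_ABX with vitiligo, of no_induction_ABX with no_induction and of hippuric_acid with vehicle hold separate libraries. Of 13842 genes tested in all 3, 104 (0.751%) were called higher in each, and Hoxb13 was the only Hox gene among them. Ordered by the smallest of its 3 log2 fold changes, 1.74, it ranked 2 of those 104. No Hox gene was among the 324 genes (2.34%) called lower in each. Hoxb3 and Hoxb6 were called higher with ABX under induction and with hippuric acid, and with ABX and no induction neither was.

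**Figure D4:**
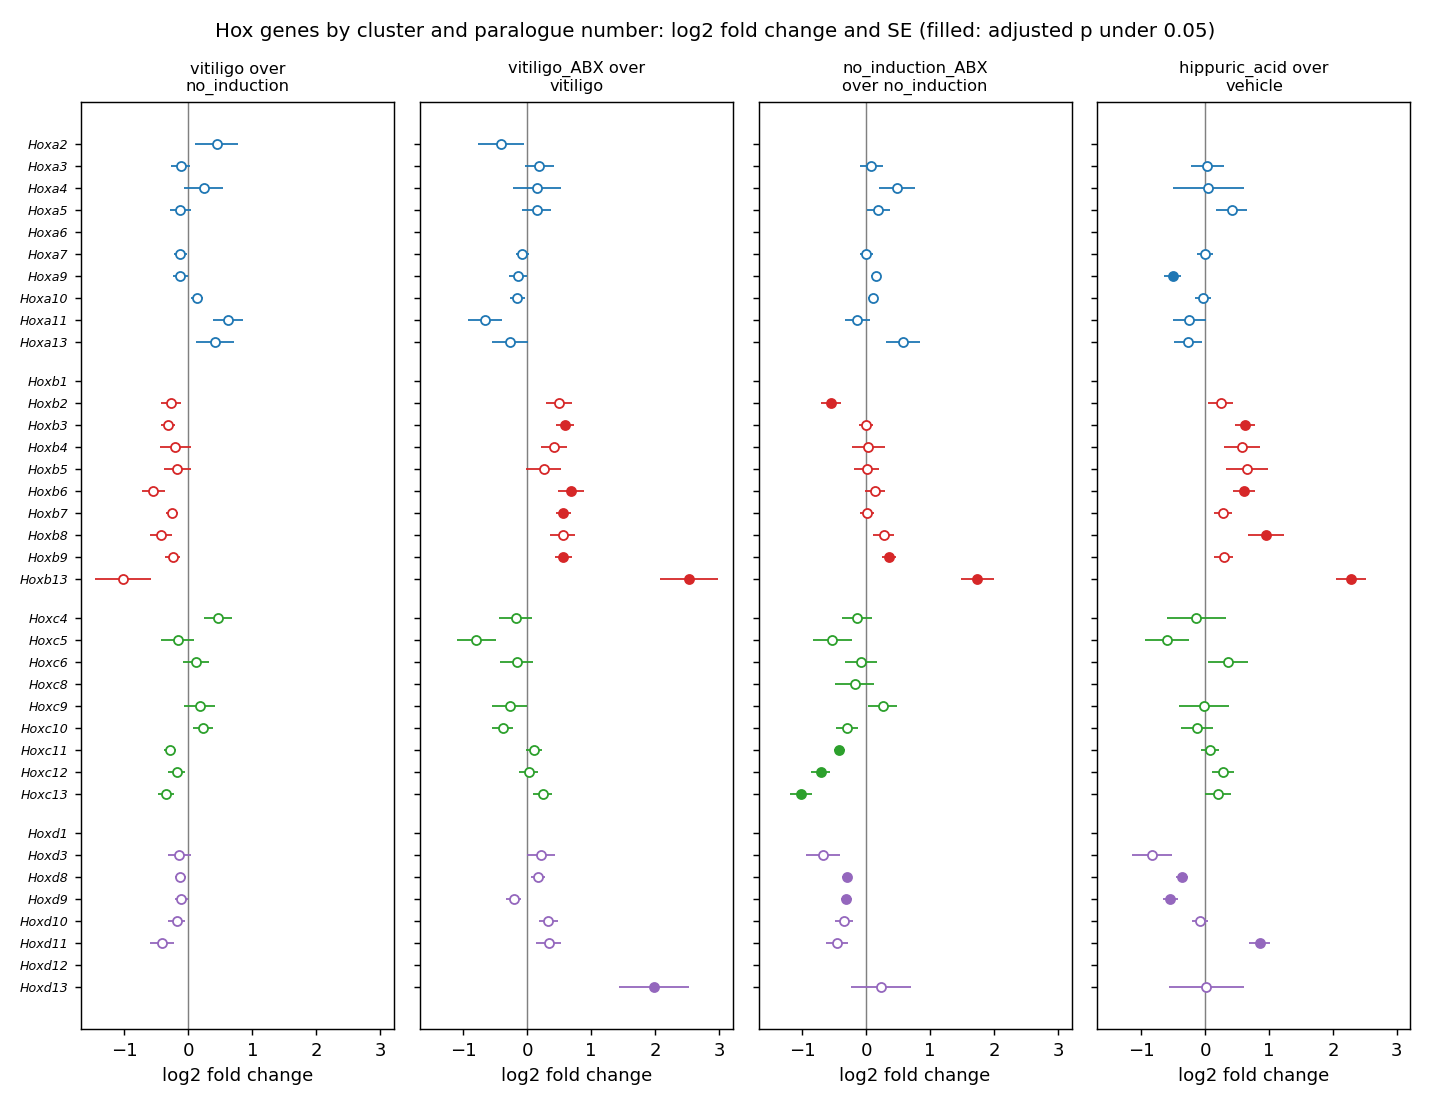
Log2 fold change (horizontal axis) with SE of tested Hox genes (rows, by cluster and paralogue number) in 4 comparisons; filled points have an adjusted p under 0.05 and genes with no point did not pass the count filter. All 9 Hoxb genes lie right of 0 for vitiligo_ABX over vitiligo and for hippuric_acid over vehicle and left of 0 for vitiligo over no_induction.

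Vitiligo induction by itself called none of 31 Hox genes with edgeR, beside 7.74% of all genes. At an unadjusted p under 0.05 there were 11, of which 9 were lower, and DESeq2 called 2 and limma-voom 15. All 9 tested Hoxb genes had a negative log2 fold change, with a median of -0.27 against 0.01 over all genes. The smallest adjusted p was that of Hoxb6, which averaged 3.39 ± 1.08 CPM in vitiligo and 5.05 ± 0.925 in no_induction (-0.55 ± 0.17, adjusted p = 0.0567). Hoxb13 averaged 4.03 ± 3.01 CPM in vitiligo and 8.28 ± 3.50 in no_induction, with overlapping ranges (-1.02 ± 0.44, adjusted p = 0.145). Hoxc13 averaged 91.9 ± 22.5 CPM in vitiligo and 119 ± 22 in no_induction (-0.35 ± 0.13, adjusted p = 0.0889), and Hoxa13 differed by 0.42 ± 0.30 (adjusted p = 0.389). Hoxd13 did not pass the filter. Without vitiligo 001, whose Hoxb3 and Hoxc13 were the highest of its group, 7 Hox genes were called, and without no_induction 005 or 001 there were 4 and 2. The 9 adipocyte markers all rose, to a sum of 2376 to 6701 CPM in vitiligo against 521 to 1718 CPM in no_induction, and 3 of 7 melanocyte markers fell. Their part was not tested.

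Vehicle against no_induction, both wild type by label, called none of 33 Hox genes with edgeR, beside 0% of all genes. At an unadjusted p under 0.05 there were 4, all lower, and neither DESeq2 nor limma-voom called a Hox gene. As for vitiligo against no_induction, all 9 tested Hoxb genes had a negative log2 fold change, with a median of -0.25 against 0.004 over all genes. Both comparisons use the same no_induction libraries. Hoxb13 averaged 6.38 ± 2.62 CPM in vehicle and 8.28 ± 3.50 in no_induction, a difference of -0.37 ± 0.41. Hoxc13 differed by -0.46 ± 0.20, Hoxa13 by 0.48 ± 0.38 and Hoxd13 by -0.46 ± 0.62, and all 4 had an adjusted p of 0.999. No difference was detected by this test.

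Induction under ABX changed 4 of 31 Hox genes, beside 4.97% of all genes. Hoxa9 had 42.9 to 58.1 CPM in vitiligo_ABX and 61.4 to 77 in no_induction_ABX, without overlap, with a log2 fold change of -0.43 ± 0.08 (adjusted p = 0.0123), a call that held without any 1 of the 12 libraries. Hoxc13 had 78.1 to 137 CPM in vitiligo_ABX and 36.6 to 88.8 in no_induction_ABX and rose by 0.91 ± 0.20 (adjusted p = 0.0211). Hoxb2 averaged 9.10 ± 2.15 CPM in vitiligo_ABX and 5.34 ± 1.23 in no_induction_ABX (0.78 ± 0.19, adjusted p = 0.0294), and Hoxd8 averaged 61.5 ± 5.63 CPM in vitiligo_ABX and 49 ± 5.65 in no_induction_ABX (0.34 ± 0.09, adjusted p = 0.0483). Hoxb2 was lost without any 1 of 7 of the 12 libraries and Hoxd8 without any 1 of 10, and Hoxa9 was the 1 gene still called without vitiligo_ABX 001 or no_induction_ABX 002 or 004. Hoxc13 was lost without these or vitiligo_ABX 002 alone, and without vitiligo_ABX 001 to 003 together (adjusted p = 0.167), whose Hoxc13 was 108 to 137 CPM against 78.1 to 102 CPM in vitiligo_ABX 004 to 006, and the count of Hox genes was then 2. Hoxb13 (-0.23 ± 0.19, adjusted p = 0.544), Hoxa13 (-0.42 ± 0.20, adjusted p = 0.236) and Hoxd13 (0.18 ± 0.46, adjusted p = 0.874) were not called. Of 11 tested hair shaft and matrix markers 7 rose.

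The ABX difference itself differed with induction for 8 of 34 Hox genes, all with a positive interaction (ABX difference with induction minus that without), beside 11.5% of all genes, 6.68% as positive. Hoxc13 differed by 0.25 with ABX under induction and by -1.02 without it, an interaction of 1.25 ± 0.24 (adjusted p = 0.0014). Hoxc12 and Hoxc11 had interactions of 0.72 ± 0.21 (adjusted p = 0.0238) and 0.51 ± 0.15 (adjusted p = 0.029). Hoxb2 differed by 0.50 under induction and -0.55 without it (1.04 ± 0.26, adjusted p = 0.00926). Hoxb3, Hoxb7, Hoxd8 and Hoxd10 had interactions of 0.58, 0.54, 0.46 and 0.66 (adjusted p = 0.0265, 0.0227, 0.021 and 0.0437). The interaction of Hoxb13 was 0.79 ± 0.56 (adjusted p = 0.376), that of Hoxa13 was -0.86 ± 0.41 (adjusted p = 0.175) and that of Hoxd13 was 1.73 ± 0.77 (adjusted p = 0.138). Without vitiligo_ABX 001 to 003, Hoxb2 and Hoxc13 were the 2 genes still called, and without no_induction_ABX 005 there were 5. Hoxd10 was lost without any 1 of 19 of the 30 libraries, and without those with Y-linked (adjusted p = 0.0642) or gastrointestinal transcripts (adjusted p = 0.0971). Of the 11 tested hair shaft and matrix markers 10 also had a positive interaction, and their part in the Hoxc results was not tested.

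Over the 6 groups together, 19 of 35 tested Hox genes differed (54.3%), beside 47.1% of all genes. Hoxb13 had the smallest adjusted p, 2.44e-07. By cluster the differing genes were Hoxa7, Hoxa9 and Hoxa11 in A, Hoxb2, Hoxb3, Hoxb6 to Hoxb9 and Hoxb13 in B, Hoxc5 and Hoxc11 to Hoxc13 in C, and Hoxd3, Hoxd8, Hoxd9, Hoxd11 and Hoxd13 in D. Without the libraries with gastrointestinal transcripts Hoxa11 (adjusted p = 0.0952), Hoxc5 (0.0636) and Hoxd13 (0.122) were lost, and without those with Y-linked transcripts Hoxc5 (adjusted p = 0.0875) and Hoxd3 (0.0525). Hoxc5 and Hoxd13 were also lost without the count filter. Exons of Hoxd3 overlap those of Gm28230 on the same strand over 53.1% of its length, so its counts are uncertain.

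**Figure D5:**
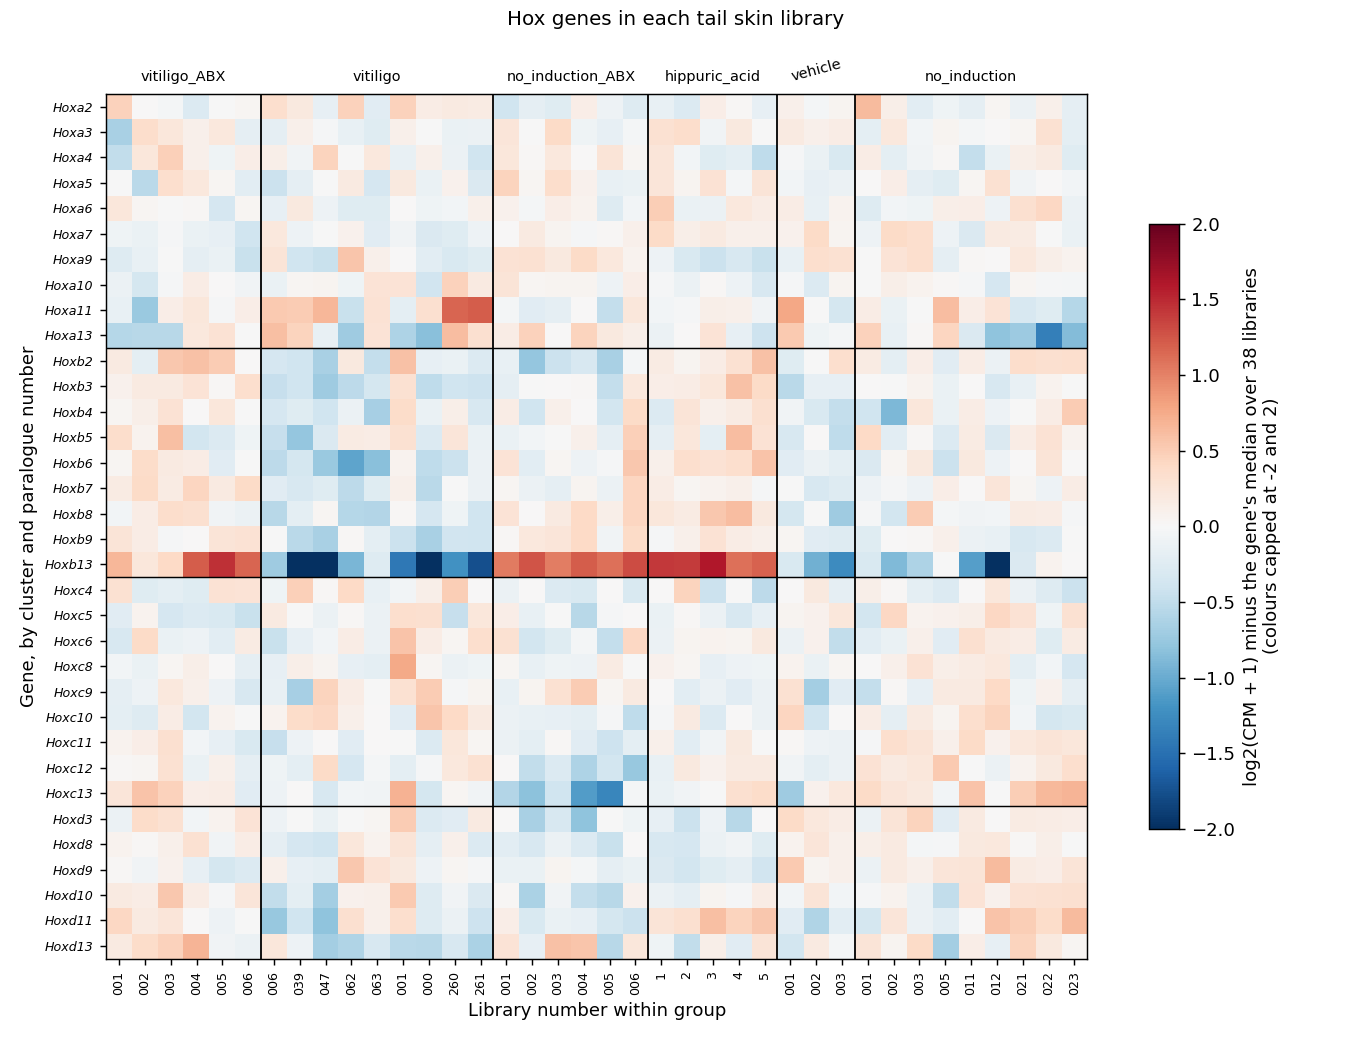
Log2(CPM + 1) of 34 tested Hox genes (rows, by cluster and paralogue number) in each library (columns, by group), as the difference from the gene's median over 38 libraries, with red higher and blue lower. The row of Hoxb13 is red in all 17 libraries given ABX or hippuric acid, and other Hoxb rows are blue in most vitiligo libraries.

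Whether other Hox genes follow Hoxb13 was tested among libraries of the same group. The slope of each gene on log2(CPM + 1) of Hoxb13, fitted with group as a term, called none of 34 other Hox genes with edgeR, beside 0.034% of all genes (5 of 14719). At an unadjusted p under 0.05 there were 4, of which 3 were positive, DESeq2 called 0 and limma-voom 1. Hoxb9 had the smallest adjusted p among them (slope 0.18 ± 0.05, adjusted p = 0.312), Hoxa13 had a slope of 0.36 ± 0.14 (adjusted p = 0.567), Hoxc13 of 0.04 ± 0.09 and Hoxd13 of 0.30 ± 0.32. The 5 genes outside the Hox clusters with the smallest p for a positive slope were Ncald, a calcium sensor (0.30 ± 0.05, adjusted p = 0.0174), Htra4, a serine protease (0.52 ± 0.10, adjusted p = 0.0236), Lrrn1, a membrane protein with leucine-rich repeats (0.43 ± 0.09, adjusted p = 0.0439), Bpifb9a (4.30 ± 0.89, adjusted p = 0.0811) and Bpifb9b (2.92 ± 0.68, adjusted p = 0.138). The other 2 called genes, named after their values were seen, were haptoglobin Hp (-0.97 ± 0.18, adjusted p = 0.0174) and the interferon-induced Oasl1 (-0.91 ± 0.18, adjusted p = 0.0439).

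The 9 listed TALE genes (Pbx, Meis and Pknox), whose homeodomain proteins bind DNA with Hox proteins, summed to 170 to 200 CPM in vitiligo_ABX, 164 to 215 in vitiligo, 192 to 208 in no_induction_ABX, 171 to 201 in hippuric_acid, 182 to 194 in vehicle and 170 to 200 in no_induction. For vitiligo_ABX against vitiligo, Pknox1 rose by 0.32 ± 0.08 (adjusted p = 0.0148) and Meis3 fell by 0.59 ± 0.17 (adjusted p = 0.032), as 2 of 8 tested, beside 13.1% of all genes. For no_induction_ABX against no_induction, Pbx3 rose by 0.30 ± 0.11 (adjusted p = 0.0433), where 31.1% of all genes were called. In the other 4 comparisons of pairs of groups 0 of 8 or 9 were called.

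Of 12 listed genes that act upstream of posterior Hox genes in the embryo, 4 were measured well enough to test. Gdf11, a signal that starts trunk-to-tail patterning, averaged 5.06 ± 0.975 CPM in vitiligo_ABX and 3.10 ± 0.537 in vitiligo and rose by 0.71 ± 0.15 (adjusted p = 0.00561). Wnt3a, a tail bud signal also used in hair follicles, averaged 3.45 ± 0.925 CPM in no_induction_ABX and 7.38 ± 1.74 in no_induction (-1.09 ± 0.19, adjusted p = 0.000507), and 7.78 ± 1.68 CPM in vitiligo_ABX, 1.19 ± 0.20 higher than in no_induction_ABX (adjusted p = 0.00758). Rarg, a retinoic acid receptor, fell by 0.27 on the log2 scale in no_induction_ABX against no_induction (adjusted p = 0.0127). None of the 4 was called for vitiligo against no_induction, hippuric_acid against vehicle or vehicle against no_induction.

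Other positional transcription factors were followed as well. Of 23 listed, 11 of 19 tested changed in vitiligo_ABX against vitiligo (13.1% of all genes), 14 of 20 in no_induction_ABX against no_induction (31.1%), 7 of 20 in hippuric_acid against vehicle (13.8%), 4 of 19 in vitiligo_ABX against no_induction_ABX (4.97%), 1 of 18 in vitiligo against no_induction (7.74%) and 0 of 20 in vehicle against no_induction (0%). Osr1, a factor of limb and trunk mesenchyme, averaged 16.6 ± 9.09 CPM in vitiligo_ABX and 4.51 ± 1.44 in vitiligo (1.88 ± 0.30, adjusted p = 0.000641), and 19.3 ± 2.10 CPM in no_induction_ABX and 7.39 ± 3.18 in no_induction (1.40 ± 0.21, adjusted p = 0.000159). Tbx18, a mesenchymal factor, rose by 1.32 ± 0.16 in no_induction_ABX (adjusted p = 3.77e-05) and by 0.82 ± 0.14 in hippuric_acid (adjusted p = 0.00495). Of the listed factors, 4 rose and 7 fell with ABX under induction, and 7 rose and 7 fell with ABX and no induction. With hippuric acid 5 rose and 2 fell. Among those that rose, Osr1, Tbx18 and Alx4 were each called higher with ABX under induction, with ABX and no induction, and with hippuric acid. The smallest of their log2 fold changes were 1.39, 0.66 and 0.59. Of all genes tested in these comparisons 0.751% were called higher in each. Irx3 fell by 0.72 ± 0.17 in vitiligo_ABX against vitiligo (adjusted p = 0.0107) and by 0.84 ± 0.15 in hippuric_acid against vehicle (adjusted p = 0.00535). Dlx3, a hair and skin differentiation factor, fell by 1.13 ± 0.23 in no_induction_ABX against no_induction (adjusted p = 0.00206). Twist1 was the 1 factor called with vitiligo induction alone, 0.63 ± 0.18 higher (adjusted p = 0.0368).

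Polycomb and Trithorax genes, whose complexes keep Hox genes silent or active, were called in 2 of 21 for vitiligo against no_induction (7.74% of all genes), 1 for vitiligo_ABX against vitiligo (13.1%), 7 for no_induction_ABX against no_induction (31.1%), 4 for vitiligo_ABX against no_induction_ABX (4.97%), 1 for hippuric_acid against vehicle (13.8%) and 0 for vehicle against no_induction (0%). The counts of 2 and 7 are near these shares. Cbx2, a Polycomb subunit, averaged 22 ± 2.84 CPM in vitiligo and 31.8 ± 4.88 in no_induction (-0.51 ± 0.10, adjusted p = 0.00215). Jarid2, a subunit of Polycomb complex 2, fell by 0.34 ± 0.08 in no_induction_ABX against no_induction (adjusted p = 0.0033) and rose by 0.36 ± 0.08 in vitiligo_ABX against no_induction_ABX (adjusted p = 0.02).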

How the data were processed

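Tail skin RNA was enriched for messenger RNA with oligo(dT) beads and sequenced on a NovaSeq instrument, per the labels' protocols. For the 38 libraries the authors deposited estimated counts by gene in 1 table. Tools listed in the submitters' processing notes are StringTie 1.3.1, Bowtie2 2.2.8, DESeq2 and HISAT2, with no roles. The build, the counter and the use of strand are not given in the sources used here. In 16.2% of genes some value of the deposited expected counts was not whole, and values were rounded, which changed a total by at most 22.1 counts. Of 19220 rows, 1 incomplete row and 1 without a symbol were left out.

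Groups followed the treatment in the labels. The labels do not say whether each library is its own mouse. The p-values then reflect only how far these libraries spread, which may be technical. Over 115 pairs of libraries of the same group, the closest pair still had a chi-square of 7.33 per degree of freedom, so none agree within sampling noise. Tests were two-sided and used edgeR 4.0.16 (quasi-likelihood, R 4.3.3), with its default count filter, TMM factors and robust dispersions. A fit held just the groups compared (all 38 for the test over 6 groups and for slopes on Hoxb13), and p-values were adjusted over all genes. The script was tested on simulated data. Exon lengths and overlaps came from GENCODE M21, promoters from RefSeq. Sums and shares over members got no test. Results for some genes are not reported here.

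The members and all lists were chosen with earlier results of these data known. Named are Hox genes called in a comparison, paralogue group 13, up to 4 listed genes with the smallest p, and the 5 smallest p for a positive slope. Alternatives were RLE factors, no count filter, DESeq2 1.42.0, limma-voom (limma 3.58.1), all 38 libraries in 1 fit, a block for the library number, each library left out in turn and, chosen after seeing the data, leaving out the libraries that stood apart.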

Additional observations from a re-analysis of the deposited data

Results flagged for a closer look

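In 17 Hox genes and the groups of 4 to 10 libraries (85 sets of values), 4 sets held a library far from the others, by a criterion that chance meets in about 1 of 20. That is close to the number chance alone would give. Vitiligo 001 had 16.1 CPM of Hoxb3, against 7.48 to 9.85 CPM in the other vitiligo libraries, and 148 CPM of Hoxc13, against 71.3 to 94.2 CPM. It also had the lowest fibroblast marker sum of all libraries, 4078 CPM, whose part was not tested. No_induction_ABX 006 had 13.5 CPM of Hoxb7, against 8.51 to 10.2 CPM in the others of its group. No_induction 012, one of the libraries with Y-linked transcripts, had 73.5 CPM of Hoxd9, against 43.2 to 56.2 CPM.

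The ABX difference with induction minus that without differed by edgeR's interaction test for 8 genes, on the log2 scale by 1.25 for Hoxc13, 1.04 for Hoxb2, 0.718 for Hoxc12, 0.661 for Hoxd10, 0.579 for Hoxb3, 0.537 for Hoxb7, 0.507 for Hoxc11 and 0.46 for Hoxd8. Without vitiligo_ABX 001 to 003 the calls of Hoxc13 and Hoxb2 were kept.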

How the results depend on the processing

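None of the 829 values of called Hox genes recomputed under the alternatives and left-out libraries changed sign, and 700 of them were still called. Hoxb13 kept its call in all of them. Counts of Hox genes moved by more than 1.5 times as follows. For vitiligo over no_induction (0 called) DESeq2 gave 2, limma-voom 15 and all 38 libraries in 1 fit 6. For vitiligo_ABX over vitiligo (6 called) limma-voom gave 13, for the interaction (8) limma-voom gave 14, for hippuric_acid over vehicle (8) it gave 5, and for slopes on Hoxb13 (0) it gave 1, as did leaving out vitiligo, no_induction and vehicle together. Without vitiligo_ABX 001 to 003, 2 genes each remained called for the interaction and for vitiligo_ABX over no_induction_ABX (4).

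Leaving out 1 library gave 0 to 7 called genes for vitiligo over no_induction, 4 to 13 for vitiligo_ABX over vitiligo (4 without vitiligo_ABX 004, 13 without vitiligo 001), 8 to 12 for no_induction_ABX over no_induction, 1 to 5 for vitiligo_ABX over no_induction_ABX (1 without vitiligo_ABX 001 or no_induction_ABX 002 or 004), 3 to 6 for hippuric_acid over vehicle (3 without hippuric_acid 3 or 5), 0 for vehicle over no_induction and 5 to 10 for the interaction. In the other settings the counts stayed within 1.5 times.

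With the library number as a replicate block, the count was 1 for vitiligo_ABX over vitiligo, 3 for no_induction_ABX over no_induction, 2 for hippuric_acid over vehicle, 0 for the interaction (no gene at all was called) and 7 over the 6 groups. Whether the numbers pair libraries was not settled: deviations of same-numbered libraries correlated by -0.152 to 0.387 over the pairs of groups. The best match bore the same number in 2 of 3 pairs for hippuric_acid over vehicle and 2 of 4 for no_induction_ABX over no_induction. For vitiligo_ABX this was 2 of 6 over no_induction_ABX and 0 of 2 over vitiligo, and for vehicle over no_induction 0 of 3. Vitiligo and no_induction share 1 number, so no paired fit was made there. The cause of these differences was not tested. Genes under about 1 CPM, such as Hoxd13, rest on few counts at this depth.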
